A study of Mus musculus with 6 samples.

Results

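The IFIT, ISG15 and Mx antiviral effectors are a set of 10 interferon-induced genes: Ifit1, Ifit2, Ifit3, Isg15, Usp18, Rsad2, Rtp4, Mx1, Mx2 and Ifi44. They were chosen by gene name, and the set was chosen because Rtp4 and Mx2 read lower with free ubiquitin (free Ub) in these same arrays. Every difference between free Ub and PBS given for them is therefore a description and not a test. Of the 10 genes 9 had a named probe on the array, out of 19057 named genes in all, and Ifi44 had none in the probe annotation used here.

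Intestinal RNA came from 6 male mice (C57 in the labels, C57BL/6J in the study's methods), 3 given PBS and 3 given free Ub, with 1 Illumina MouseWG-6 v2 array per sample. All of the mice received 7 Gy of total body radiation, so no value compares irradiated with unirradiated intestine. The sample labels give mice of 4 weeks, treatment after the radiation and collection 3.5 days after it, whereas the study's methods give older mice, a legend for the arrays gives an earlier time, and other legends place the injection before or after radiation. No label gives the dose of free Ub, and the segment of intestine is not named.

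When a cell senses viral nucleic acid it secretes type I or type III interferon, which binds receptors on the same and neighbouring cells. The receptors activate the factor ISGF3, of which IRF9 is the DNA-binding part. ISGF3 binds a DNA element in front of the responding genes, the interferon-stimulated response element, and the proteins made from these genes block steps of viral growth. In the gut this response operates in the epithelium as well as in immune cells. ISG15 is itself a ubiquitin-like protein that is joined to other proteins by its own enzyme cascade, and USP18 is the protease that removes it.

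The core of the interferon-stimulated response element is a pair of GAAA blocks separated by 2 bases, and it is shown here because it is the sequence through which these genes are known to respond together. RefSeq promoter windows (GRCm38.p6, 250 bases before to 50 bases after each annotated start) were found for 6 of the 10 genes, and GAAANNGAAA was searched on both strands. It matched in 4 of these 6 genes, against 3.99% of 27025 genes and 3.44% of 32851 promoter windows. In the sequences below, read 5′ to 3′ along the gene's own strand, capitals mark the matches (on the opposite strand the element reads TTTCNNTTTC).
Ifit1: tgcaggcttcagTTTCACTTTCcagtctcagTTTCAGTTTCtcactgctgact
Ifit3: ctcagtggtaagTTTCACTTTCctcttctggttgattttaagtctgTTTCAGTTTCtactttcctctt
Isg15: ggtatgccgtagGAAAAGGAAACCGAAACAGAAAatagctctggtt
Rsad2: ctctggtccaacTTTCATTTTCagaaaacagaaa

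The Ifit1 stretch is chr19:34640773-34640825 on the plus strand, and its 2 matches end 94 and 75 bases before the annotated start. The Ifit3 stretch is chr19:34583361-34583428 on the plus strand, with its matches 146 and 112 bases before the start. Isg15 (chr4:156200863-156200908, minus strand) held 3 overlapping matches in 1 run, the last 56 bases before the start. Rsad2 (chr12:26456551-26456584, minus strand) held 1 match, 110 bases before the start. The windows of Ifit2 and Ifi44 held no match to these letters. Among 28 other interferon-induced effectors, 20 had a promoter window and 10 of them a match. A match is a stretch of letters and was not tested for binding.

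Values below are log2 signals as the authors normalized them, so a difference of 1 is a 2-fold change, and where a gene had several probes, the one brightest on average was used. About 32.2% to 33.7% of the probes on an array sit at its lowest value near 0, called the floor here (within 0.01 of that value). Signals of different probes are not compared with each other, because probes differ in brightness for the same amount of RNA. A floor value does not show that a transcript was absent: Fabp1 and Fabp2, fatty acid binding proteins abundant in small intestine, were at the floor on 4 and 3 of the 6 arrays. The enterocyte markers Vil1, Sis, Alpi and Apoa1 were well above it, with means over the 6 mice of 12.62, 13.43, 12.28 and 13.97. Enzymes of the exocrine pancreas were also present, and their summed linear signal over 8 genes ran from 28040 to 112800 with PBS and from 6496 to 101700 with free Ub, so the samples differ in pancreatic RNA within both groups; the part of this in the effector values was not tested.

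Of the 9 effectors with a probe, 8 had a lower mean with free Ub and 1 (Ifit1) a higher one, with a median difference of -0.46 log2 over the 9, beside -0.002 over all genes. Rtp4, Mx2, Usp18 and Ifit3 had every free Ub value below every PBS value, which is 4 of 9 genes where 6.69% of all genes did so. Because this contrast led to the choice of the set, nothing is read from that count. The 7 effectors above the floor on all 6 arrays were each lower in mean, by 0.37 to 1.22 log2 and with a median of -0.58. Of all genes above the floor on all 6 arrays, 53.9% were lower in mean, 6.27% were lower without overlap, and the median difference was -0.03. Without Rtp4 and Mx2, the genes that led to the choice, the median of the remaining 7 genes with a probe was -0.40. These 7 come from the same arrays and include Ifit1 and Mx1, which had floor values, so this median too is only a description. In whole intestine fewer responding cells and less RNA per cell cannot be told apart.

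**Figure D1:**
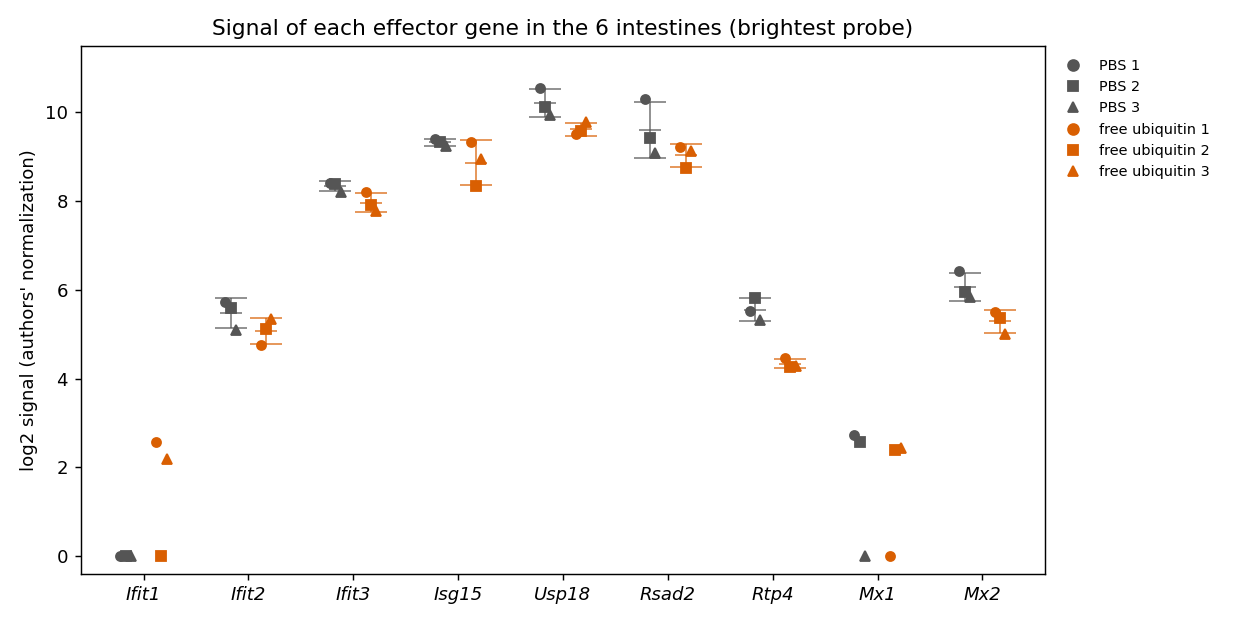
log2 signal (y axis) of the 9 effectors with a named probe in the 3 PBS and 3 free Ub intestines, 1 point per mouse; bars show the mean and SD (n = 3) of genes above the floor on all 6 arrays. Rtp4, Mx2, Usp18 and Ifit3 are the genes whose groups do not overlap, and Ifit1 and Mx1 have points at the floor near 0.

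Rtp4, a chaperone that helps receptors reach the cell surface and that interferon induces, had the widest separation. Its log2 signal was 5.51, 5.83 and 5.32 in PBS mice 1, 2 and 3, and 4.45, 4.26 and 4.28 in free Ub mice 1, 2 and 3. All 3 free Ub values lay below the PBS values, with 0.87 log2 between the nearest of them. The means were 5.55 ± 0.26 and 4.33 ± 0.10 (SD, n = 3 per group), a difference of -1.22 ± 0.16 (SE) or 2.33-fold lower. Rtp4 was the only effector past the study's own threshold of a fold change over 2 and an unadjusted p under 0.05 in limma, which 1.3% of all genes passed as lower. With the mean of its 2 probes in place of the brighter one the difference was -0.67, under that fold. Its other probe was at or close to the floor everywhere (0.48 at most) and gives no measure of the gene.

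Mx2 belongs to the dynamin-like GTPases that trap viral components. It read 6.43, 5.94 and 5.83 with PBS and 5.51, 5.37 and 5.01 with free Ub. The groups were 0.32 log2 apart at their nearest values, and PBS mouse 1 was the highest of all. The means were 6.07 ± 0.32 and 5.29 ± 0.26, a difference of -0.77 ± 0.24 or 1.71-fold. Mx1, the family member known for influenza resistance in mice, read 2.74 and 2.56 in PBS mice 1 and 2 and was at the floor in mouse 3. With free Ub it read 2.39 and 2.43 in mice 2 and 3 and was at the floor in mouse 1. The Mx1 values overlap fully, and the sign of its difference depends on which mouse is left out. RefSeq lists both Mx1 and Mx2 on chromosome 16 of C57BL/6J as transcribed pseudogenes, and many laboratory strains are known to carry defective alleles. Their signals are therefore read as transcription only.

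Isg15 and Usp18 form the ubiquitin-like arm of the set. Isg15 read 9.41, 9.33 and 9.25 with PBS and 9.33, 8.33 and 8.95 with free Ub. The PBS mice lay close together, and free Ub mouse 1 lay among them while mice 2 and 3 were lower. The means were 9.33 ± 0.08 and 8.87 ± 0.50, a difference of -0.46 ± 0.29. Without free Ub mouse 2 this difference was -0.19, so its size rests mainly on that mouse. Usp18, which also binds the interferon receptor chain IFNAR2 and dampens its signaling, read 10.56, 10.12 and 9.95 with PBS and 9.51, 9.58 and 9.78 with free Ub. Its groups were separate by 0.17 log2, with means of 10.21 ± 0.31 and 9.62 ± 0.14 and a difference of -0.59 ± 0.20. The second Usp18 probe had 7.49, 7.67 and 7.93 with PBS and 7.50, 7.42 and 7.32 with free Ub, which overlap by 0.015 log2 and differ by -0.28 in mean. On this probe PBS mouse 3 was the highest of the PBS mice, and on the brighter one it was the lowest.

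The enzymes that attach ISG15 had smaller differences, from -0.13 to 0.07 log2. Uba7, the activating enzyme, had 10.84 ± 0.21 with PBS and 10.70 ± 0.07 with free Ub. Ube2l6, the conjugating enzyme, had 7.80 ± 0.28 and 7.87 ± 0.24, and Trim25, an E3 ligase that can use ISG15, had 10.39 ± 0.32 and 10.28 ± 0.23. All of these groups overlap, and limma gave each an adjusted p of 0.872 or above. The ligase Herc6 has no named probe here.

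The 3 IFIT genes encode proteins built of tetratricopeptide repeats, a family that includes binders of foreign RNA. Ifit3 read 8.41, 8.40 and 8.22 with PBS and 8.21, 7.91 and 7.78 with free Ub. The groups were separate by only 0.010 log2, with means of 8.34 ± 0.11 and 7.97 ± 0.22 and a difference of -0.37 ± 0.14. Its second probe ran from 4.30 to 5.38 with PBS and from 3.97 to 4.94 with free Ub and overlapped widely (difference -0.26). Ifit3 has a close neighbouring copy, Ifit3b, so its probes may also read that gene. Ifit2 read 5.73, 5.60 and 5.10 with PBS and 4.75, 5.13 and 5.33 with free Ub, which overlap, and the difference was -0.40 ± 0.26. Without free Ub mouse 1, the lowest of its group, it was -0.24. The second Ifit2 probe read 6.13, 5.23 and 4.55 with PBS and 5.01, 4.66 and 4.81 with free Ub, with a difference of -0.48 and a wider spread.

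Ifit1, which recognizes RNA lacking the cap methylation of host mRNA, had a difference of opposite sign. It was at the floor in all 3 PBS mice and in free Ub mouse 2, and read 2.58 and 2.19 in free Ub mice 1 and 3. Since 4 of the 6 values are at the floor, no fold is given. The neighbouring Ifit1bl1 and Ifit1bl2 of the same cluster on chromosome 19 are measured by probes well above the floor. Ifit1bl1 had 10.64 ± 0.25 with PBS and 10.34 ± 0.31 with free Ub. Ifit1bl2 read 7.72, 8.79 and 8.94 with PBS and 8.85, 9.01 and 9.13 with free Ub. The groups overlap for both genes, the mean differences have opposite signs (-0.29 and 0.51), and PBS mouse 1 was the lowest PBS mouse for both.

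Rsad2 encodes viperin, an enzyme that makes a chain-terminating nucleotide. It read 10.31, 9.42 and 9.09 with PBS and 9.23, 8.74 and 9.12 with free Ub. PBS mouse 1 stood well above the other 5 mice, which overlapped. The means were 9.61 ± 0.63 and 9.03 ± 0.26, a difference of -0.58 ± 0.39, and without PBS mouse 1 it was -0.22. Cmpk2, the nucleotide kinase gene next to Rsad2 on chromosome 12 (which supplies a precursor of viperin's product), had the same outlying mouse. It read 9.29 in PBS mouse 1 against 8.34 and 7.97 in the other PBS mice and 7.71, 8.19 and 8.44 with free Ub.

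**Figure D2:**
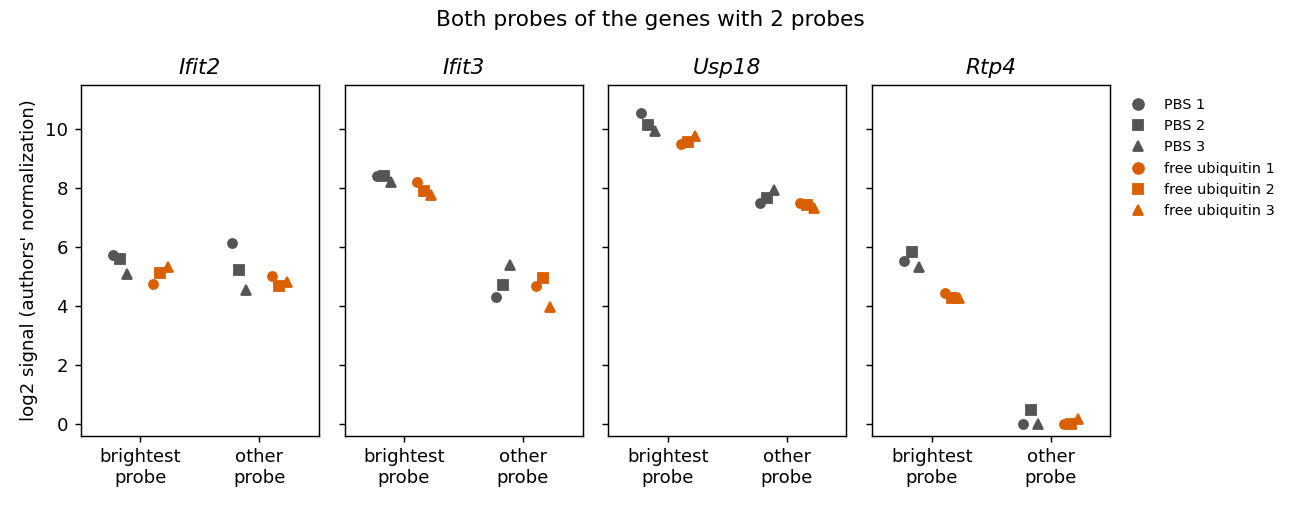
log2 signal (y axis) on the brightest and the other probe of the 4 effectors with 2 probes, 1 point per mouse. The other probe overlaps between groups for Ifit2, Ifit3 and Usp18 and lies at or near the floor for Rtp4.

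On their brightest probes the effectors largely shared an order among the PBS mice but not among the free Ub mice. This comparison within groups does not use the difference between them. PBS mouse 1 was the highest PBS mouse for 6 of the 7 effectors above the floor on all arrays. The exception was Rtp4, and PBS mouse 3 was the lowest for all 7. On the second probes of Usp18 and Ifit3 the order was reversed, with mouse 1 lowest and mouse 3 highest. The Ifit3 one read 4.30, 4.71 and 5.38 in PBS mice 1, 2 and 3. The second Ifit2 probe kept the order. The order on the brightest probes is not particular to the effectors. Of 11923 genes above the floor on all 6 arrays, PBS mouse 1 was the highest PBS mouse in 39.2%, mouse 3 the lowest in 40.1%, and both held in 23.6%. Both also held for 6 of 6 smooth muscle markers above the floor. Among them was the smooth muscle actin gene Actg2 (11.36, 10.21 and 9.28 in PBS mice 1, 2 and 3). Other lists varied, with 5 of 8 enterocyte markers, 10 of 26 other interferon-induced effectors and 4 of 7 interferon receptor and ISGF3 genes. Neither endothelial nor macrophage markers showed it (0 of 10 and 0 of 8). The part of muscle or epithelial RNA in the effectors' order was not tested. Relative to each gene's mean over the 6 mice, the median effector stood at 0.57 log2 in PBS mouse 1, 0.24 in mouse 2 and 0.06 in mouse 3. The free Ub mice had medians of -0.17, -0.34 and -0.20 for mice 1, 2 and 3 and kept no common order. Free Ub mouse 1 was the highest of its group for 5 effectors and the lowest for Ifit2 and Usp18. The distance between the medians of PBS mice 1 and 3 was larger than that between PBS mouse 3 and the free Ub mice. Spread between mice of 1 group was thus of the same size as the difference between the groups for Rsad2, Ifit2 and Isg15. Nothing in the labels says more of how these mice differ.

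**Figure D3:**
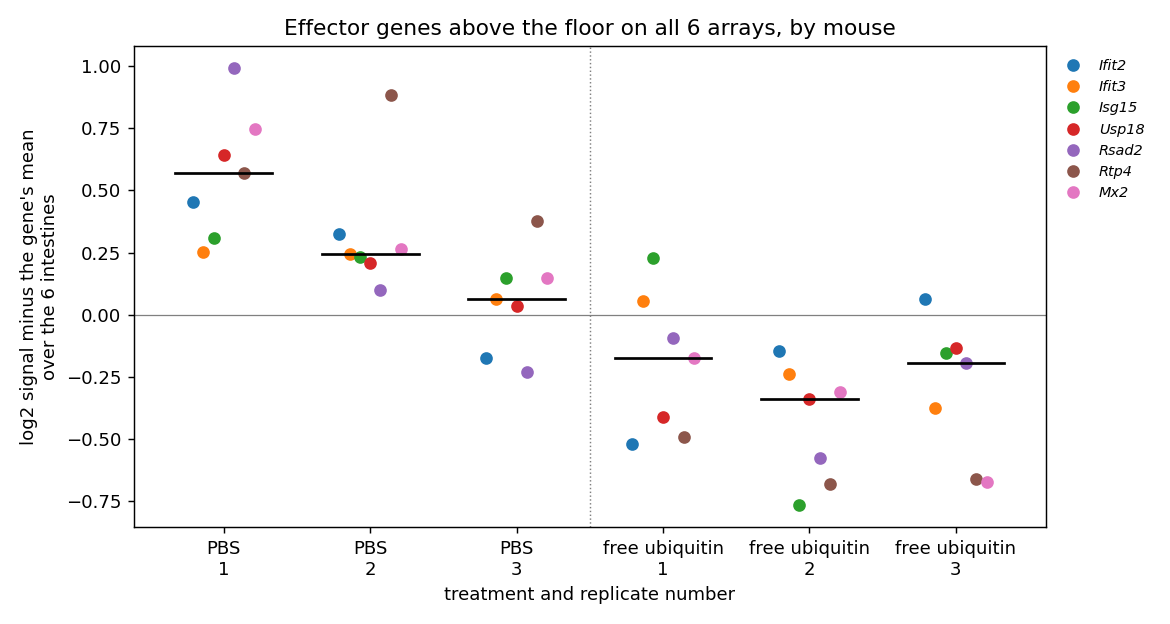
log2 signal of the 7 effectors above the floor on all 6 arrays, as the difference from each gene's mean over the 6 mice (y axis), for each mouse (x axis); black bars are medians over the 7 genes. The medians run from 0.57 in PBS mouse 1 to -0.34 in free Ub mouse 2, and PBS mouse 3 lies at 0.06.

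In the limma fit over all 45281 probes, 0 of the 9 effectors passed an adjusted p under 0.05, where 0.0577% of all genes did. At an unadjusted p under 0.05, Rtp4, Mx2, Usp18 and Ifit3 were counted as lower and none as higher, 4 of 9 genes where 3.4% of all genes were lower and 2.34% higher at that level. As the set was picked on this contrast, the count describes it and is not support. Rtp4 stayed below 0.05 in all 16 alternative fits and Mx2 in 14, Usp18 in 11 and Ifit3 in 5. No effector passed an adjusted p under 0.05 in any of the 16. With 3 mice per group, these p-values set a difference against the spread between these mice, moderated across all probes. Nothing in the labels describes litters or cages.

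The upstream genes of the pathway were tested in the same fit from lists that include the receptor chains, the kinases, the factors and the ligands. Among 10 measured genes of the receptor and ISGF3 list, Irf7 was the one at an unadjusted p under 0.05, as lower. Irf7, the factor that amplifies interferon production, read 8.04, 8.10 and 7.86 with PBS and 7.60, 7.20 and 7.18 with free Ub, without overlap (limma, difference -0.67, adjusted p = 0.571). Stat2 had 6.92 ± 0.23 and 6.69 ± 0.28, Irf9 8.28 ± 0.20 and 8.25 ± 0.05, and Tyk2 8.15 ± 0.02 and 8.10 ± 0.21. These 3 overlap between groups, and their differences ran from -0.22 to -0.03. The receptor chains Ifnar1 and Ifnar2 had floor values, on 2 arrays and 1 array. Over the list 6 genes were lower in mean and 4 higher, with a median difference of -0.04.

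Irf1, a transcription factor that interferons induce, read 12.40, 11.98 and 11.87 with PBS and 12.01, 12.14 and 12.40 with free Ub. Its groups overlap fully (12.08 ± 0.28 and 12.18 ± 0.20).

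The interferons themselves were dim. Of 16 measured ligand genes, 10 had at least 1 floor value, and Ifnb1 and Ifnl3 were listed at the floor on all 6 arrays. The brightest, Ifna6 and Ifnab, had 5.09 ± 0.16 and 5.08 ± 0.26 with PBS and 5.07 ± 0.44 and 5.13 ± 0.21 with free Ub. None of the 16 passed an unadjusted p under 0.05 in either direction, and with the floor values the list gives no measure of interferon expression. The genes of this family are near copies of each other, so their probes may not tell them apart.

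Other interferon-induced effectors differed in the same direction as the set. Of 28 measured genes 23 were lower in mean and 5 higher, with a median difference of -0.33, where 49.7% of all genes were lower in mean. At an unadjusted p under 0.05, 8 were lower and 0 higher, beside the 3.4% and 2.34% of all genes given above. The smallest p-values belonged to the oligoadenylate synthetases Oas1g (10.86 ± 0.16 and 10.15 ± 0.16), Oas2 (7.71 ± 0.37 and 6.20 ± 0.35) and Oas3 (5.51 ± 0.27 and 4.30 ± 0.33), and to Lgals3bp (11.36 ± 0.06 and 11.12 ± 0.10). With limma their adjusted p-values were 0.45, 0.482, 0.493 and 0.75, so 0 passed after adjustment. The RNA sensor genes Rigi (-0.06) and Ifih1 (0.27) differed by less than their spread, and Dhx58, of the same family, by -0.87 without overlap. This list too was drawn up with lower interferon-induced genes in these arrays known, and it is no independent evidence.

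Of 7 measured relatives by gene family, 4 were dim. Rtp1, Rtp2 and Rtp3, the relatives of Rtp4, and Ifi44l, that of Ifi44, all had at least 1 floor value on the brightest probe.

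**Figure D4:**
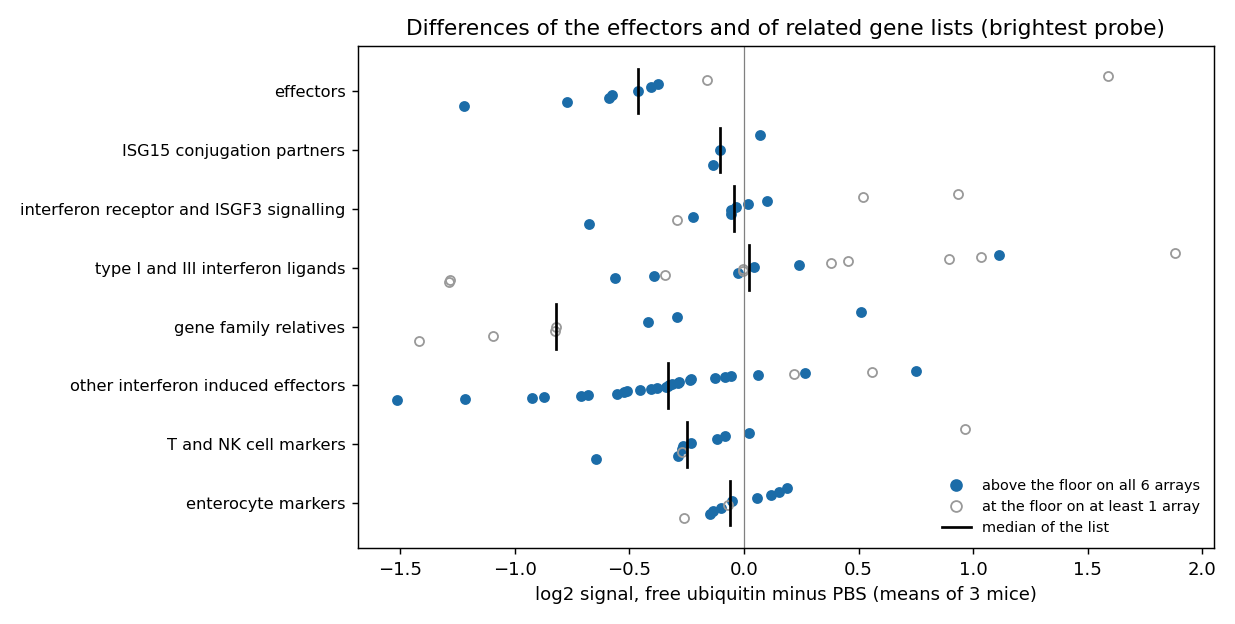
Difference between free Ub and PBS in log2 signal (x axis, means of 3 mice) for each gene of the set and of related lists (rows), with filled points above the floor on all 6 arrays, open points with a floor value, and the list's median as a bar. The medians are -0.46 for the effectors, -0.33 for other interferon-induced effectors, -0.04 for receptor and ISGF3 genes and -0.06 for enterocyte markers.

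Markers of cell types that carry or produce an interferon response were read beside the set. T and NK cell markers were lower in mean for 8 of 10 genes (median -0.25). Their summed linear signal ran from 2947 to 2993 with PBS and from 2251 to 2640 with free Ub. Cd8b1, the brightest gene of the list, made up the larger part of this sum in every mouse, so the sum mainly repeats that gene. Within this list the T cell receptor chains Cd3e, Cd3g and Cd3d overlapped, with differences of -0.12, 0.02 and -0.08. Cd8a and Gzmb had floor values, and 3 of the 10 genes were lower without overlap, where 6.69% of all genes were. These were Prf1, perforin (7.98 ± 0.29 and 7.33 ± 0.16), Cd8b1, a chain of the CD8 coreceptor (10.68 ± 0.06 and 10.39 ± 0.20), and Klrd1, an NK receptor chain (6.58 ± 0.17 and 6.31 ± 0.11). For plasmacytoid dendritic cells, the specialized interferon producers, 5 of 6 markers were lower (median -0.36), and all 6 overlapped between groups. Among the lower ones were Siglech, with 4.51 ± 0.59 and 3.69 ± 0.40, and Bst2, which interferon also induces. Cox6a2 was higher (1.20), and both it and Ccr9 (-1.375) had floor values. Ly6d and Klk1 differed by -0.20 and -0.11, less than their spread. The summed signal of the 6 markers was mostly that of Klk1, a kallikrein gene that is also expressed in pancreas. Klk1 was highest in the 2 mice with the highest pancreatic sums. Without Klk1 the sum over 5 genes ran from 110.0 to 208 with PBS and from 84.5 to 171 with free Ub. Macrophage markers were lower for 4 of 8 and pan-leukocyte markers for 5 of 6 (medians -0.07 and -0.12), and enterocyte markers for 6 of 10 (median -0.06). Their part in the lower effector signals was not tested.

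The genes whose pattern over the 6 mice was most like that of the effectors were sought among 1003 genes with a mean above 6 log2 and an SD of at least 0.3. The measure of likeness was the correlation with the mean of the 7 centred effectors, given as a description because the effectors' own difference between groups enters it. Prf1 came first (0.989), followed by Rgs9 (0.985), Erich5 (0.981), Trim30a (0.976), Dhx58 (0.969), Mrpl52 (0.943), C2 (0.938) and Oas2 (0.934). Trim30a, Dhx58 and Oas2 are interferon-induced genes, and C2 is a complement component. In all 8 the free Ub values lay below the PBS values. Prf1 was highest in PBS mouse 1 (8.26) and lowest among the PBS mice in mouse 3 (7.67), as most effectors were, and read 7.40, 7.14 and 7.45 with free Ub.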

How the data were processed

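Intestinal RNA of 3 PBS and 3 free Ub mice was hybridized to 1 array each, and groups and replicate numbers came from the sample titles. The authors processed the raw data in GenomeStudio (version not given) by cubic-spline normalization. Judged by their range, the deposited numbers are log2 signals. No source states the log base, and the handling of background and of the floor is not given in the sources used here. The 6 columns have equal medians (2.551), and arrays correlated at 0.926 to 0.945. No further normalization was applied. The number of arrays limits the precision.

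All 45281 probes entered 1 limma model (version 3.58.1, R 4.3.3) of free Ub minus PBS with moderated, two-sided tests and Benjamini-Hochberg adjustment over all probes. The fit was also run on simulated data with changes placed only in bright probes, which says nothing of dimmer probes such as that of Rtp4. Probes were named from GEO's platform annotation: 34885 had 1 symbol, 18 several and 10378 none listed. A gene was read by its brightest probe. Named genes were the 10 effectors, genes of related lists at an unadjusted p under 0.05 (up to 4 per list), and the 8 genes most like the effectors; others were named after their values were seen. The members, lists and tests were chosen with earlier results of these data known. Promoter sequences came from RefSeq (GRCm38.p6); Usp18, Rtp4, Mx1 and Mx2 had no entry.

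Alternatives were quantile normalization, median centring, a floor of 4, a filter on dim probes, a replicate block, an intensity trend, the methods' t-test, the mean of a gene's probes and leaving out each sample. Added after seeing the data were fits without probes that touch the floor, the median without Rtp4 and Mx2, the share of genes with the effectors' order of PBS mice, and the marker sum without Klk1.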

Additional observations from a re-analysis of the deposited data

How the results depend on the processing

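With quantile normalization or median centring 8 of 9 effectors were lower in mean, as in the values reported, and without 1 sample 7 or 8 were. Leaving out 1 sample moved their median difference between -0.72 (without PBS mouse 3) and -0.34 (without PBS mouse 1), from -0.46. The count of effectors lower at an unadjusted p under 0.05 was 4 and ran from 1 (without free Ub mouse 2, Rtp4 alone) to 4; it was 2 without PBS mouse 2 or free Ub mouse 3, and 2 with the methods' paired t-test. The difference of Mx1, -0.16, ranged from -1.04 to 0.64 without 1 sample, and turned positive without PBS mouse 1 or 2 or free Ub mouse 1. Of the related genes 9 were lower at an unadjusted p, and leaving out 1 sample gave 5 to 10 (5 without free Ub mouse 2 or 3).

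The count of probes at an adjusted p under 0.05, 24, was 0 with a floor of 4, a filter on dim probes, an intensity trend, only probes above the floor, the replicate block or the methods' paired t-test, 11 with its unpaired form, and 75 to 112 without 1 sample. At an unadjusted p, these zero counts held 1167, 1168, 1736, 1210, 2446 and 1559 probes. The count past the study's threshold, 1115, was 25 with a floor of 4, 457 with the filter, 431 above the floor, 612 with the paired t-test and 1305 to 1681 without 1 sample. The cause was not tested. Same-numbered samples did not deviate together (correlations of deviations -0.003, 0.02 and -0.091 over 21349 probes), so the replicate block treats mice as paired that share only a number; with it Usp18 was no longer below 0.05. Ifit1 and Mx1 have no value with a floor of 4 or the filter, because their signals lie below both.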

Other observations

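Further cell type markers were read in the same samples. Endothelial markers were lower in mean with free Ub for 7 of 10 genes (median difference -0.19). In limma 2 of the 10, Eng and Robo4, were lower at an unadjusted p under 0.05, where 3.4% of all genes were. At an adjusted p under 0.05 there were 0. Their summed linear signal ran from 863.9 to 1088 with PBS and from 695.8 to 869.4 with free Ub. Smooth muscle markers were higher in mean for 7 of 7 genes (median 0.24), with 0 at an unadjusted p under 0.05 and summed signals from 6962 to 15980 with PBS and from 11130 to 11890 with free Ub. B and plasma cell markers were lower for 2 of 5 genes (median 0.06) and erythroid markers for 2 of 3. Pancreatic exocrine markers were lower for 8 of 8 (median -0.87), and overlapped between groups for each gene.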
